A study of Homo sapiens with 4 samples.

Results

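The components of the WNT pathway described here are 10 genes chosen by name: LEF1, TCF7L2, AXIN1, AXIN2, APC, GSK3B, WNT5A, LRP6, RNF43 and ZNRF3. Of these, 9 were listed among the 14355 gene names of the tables, and LRP6 had no row in the tables used here and was not analysed. Ribosome footprints, the RNA fragments that translating ribosomes protect from nuclease, were measured in Hermes 4B melanocytes, immortalised pigment cells of human skin that are labelled wild type. One pair of groups was compared, cells transfected with a control siRNA and cells transfected with an siRNA against CDH3-AS1, an RNA antisense to the P-cadherin gene CDH3, to ask how ribosome density differs when it is targeted. CDH3-AS1 had no row in the tables used here, so its own level was not analysed and does not check the labels. Each group had 2 libraries, 1 from batch 1 and 1 from batch 2. Both groups received 25 to 50 nM siRNA and were grown in medium with 10 ng/mL stem cell factor, cholera toxin at 200 pM, endothelin-1 at 10 nM, the phorbol ester TPA at 200 nM and 10% serum. At harvest all cells were washed with cycloheximide at 100 µg/mL, an inhibitor that stalls elongating ribosomes. All results therefore come from 1 cell line kept in the presence of these agents. Each group had a single siRNA label, and the siRNA sequences were not used here.

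In the canonical WNT pathway, a WNT ligand binds a Frizzled receptor and its coreceptor LRP5 or LRP6. Without a ligand, a destruction complex built on AXIN and APC lets the kinases CK1 and GSK3 mark beta-catenin, the product of CTNNB1, for degradation. With a ligand, beta-catenin accumulates, enters the nucleus and activates transcription with DNA-binding proteins of the TCF and LEF family. The transmembrane ubiquitin ligases RNF43 and ZNRF3 remove Frizzled receptors from the cell surface and so act as brakes. In the melanocyte lineage, WNT signalling is known for its part in forming melanocytes from the neural crest, and MITF, the master regulator of pigment cells, is a known target of beta-catenin.

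Depth set what could be seen. Coding-sequence reads numbered 1842464 and 5628127 in the control libraries of batches 1 and 2, and 6348372 and 2609767 in the CDH3-AS1 siRNA libraries. Levels are given as CPM, the reads in a gene's coding sequence scaled to the same coding-sequence total in every library. A gene with 3 reads stood at 1.63, 0.533, 0.473 and 1.15 CPM in these libraries in the same order, and intervals on reads cover counting error only. All 10 melanocyte markers had reads in every library, with a summed level between 21655 and 40329 CPM. Skeletal muscle markers summed to 4132 CPM in control replicate 1, where all 12 listed markers had reads, and to at most 14.3 CPM elsewhere, with MYH1, CKM, TNNC2 and MB at 0 in the other 3 libraries. Of 5 listed fibroblast markers, 4 had reads in that library, where they summed to 496 CPM against at most 4.25 CPM elsewhere. Nearly all of these reads came from the collagen genes COL1A1 (699 reads) and COL1A2 (204 reads), while DCN was at 0 there and had 1 to 7 reads in each other library. Keratinocyte markers ranged from 18.9 to 70.5 CPM, carried by KRT10 and DSP and higher in batch 2. Values without control replicate 1 are given beside the fold changes of the 6 tested components and the called genes, and the part of these transcripts in them was not tested.

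Of the 10 components, 7 had coding-sequence reads in every library and 6 had enough reads to be tested: ZNRF3, AXIN1, APC, GSK3B, LEF1 and TCF7L2. None of the 6 was called in edgeR's quasi-likelihood test, which compared the siRNAs over 10469 genes and called 0 of them (0%) at a Benjamini-Hochberg adjusted p of 0.05. At an unadjusted p of 0.05, 225 genes (2.15%) passed, none of them a component, and DESeq2 called 2 genes (0.0191%). With the batch as a replicate block, which pairs the libraries of a batch, edgeR called 170 genes (1.62%), 97 higher (0.927%) and 73 lower (0.697%), and again no component. Separate cultures are not stated for the libraries, so the p-values rest on the spread among these samples, and that spread may be technical. In these bulk samples a change in the share of cells and a change in RNA per cell cannot be told apart.

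Beta-catenin, the protein on which the pathway turns, had fewer footprints after CDH3-AS1 siRNA. CTNNB1, on chromosome 3 at 41199505 to 41240443 (GRCh38.p14, as are the other positions), stood at 2868 and 3593 CPM in control batches 1 and 2 and at 1492 and 1220 CPM with CDH3-AS1 siRNA. Every CDH3-AS1 siRNA library lay below every control library, and in batches 1 and 2 the level came to 52.0% and 34.0% of the control. The edgeR log2 fold change of -1.21 (SE 0.34) had an adjusted p of 1.00 without the block, and with it the value of -1.21 (SE 0.20) had an adjusted p of 2.07e-06. Without control replicate 1 and without the block it was -1.34. CDH3, on chromosome 16 at 68645310 to 68733771, lay at 293 and 322 CPM in the controls and at 179 and 192 CPM after CDH3-AS1 siRNA. Its edgeR log2 fold change was -0.68 without the block (SE 0.32, adjusted p = 1.00) and with it (SE 0.25, adjusted p = 0.168). Use of strand in counting is not given in the sources used here, so reads of CDH3 and of the antisense RNA that overlaps it cannot be told apart.

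The components lay on both sides of 0 beside the lower CTNNB1 level. Their median log2 fold change was 0.07, beside -0.03 over all tested genes, and single values ran from -0.34 for LEF1 to 0.73 for TCF7L2. Of the 6, 3 were higher in both batches (ZNRF3, TCF7L2 and APC), 1 was lower in both (LEF1) and 2 went opposite ways (AXIN1 and GSK3B). Among all tested genes, 26.5% were higher and 27.8% lower in both batches. The groups did not overlap for 3 of the 6, TCF7L2 and ZNRF3 on the higher side and LEF1 on the lower side. Groups that did not overlap were found for 27.3% of all tested genes (11.2% higher and 16.1% lower). AXIN2, which was not tested, also had both CDH3-AS1 siRNA libraries below both controls, from 3 to 9 reads per library. The smallest two-sided p that an exact permutation test can reach with 2 libraries per group is 0.333.

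**Figure D1:**
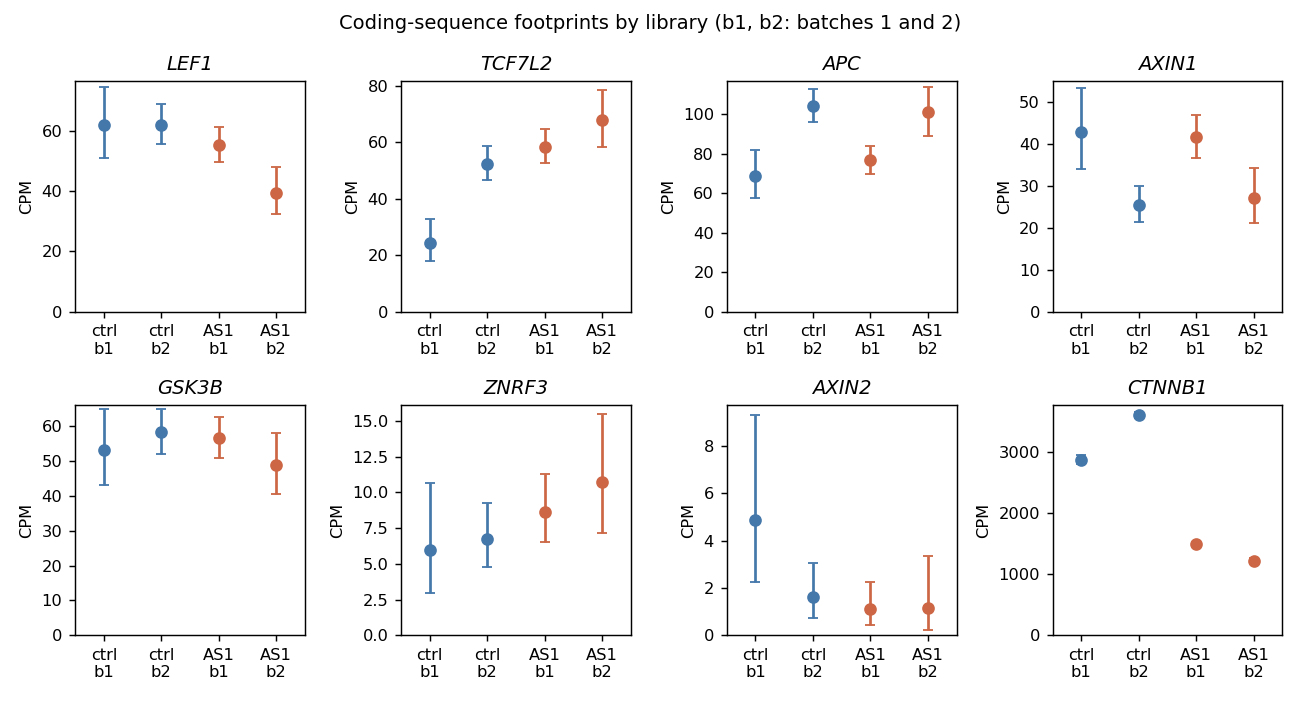
Coding-sequence footprints of 7 components and of CTNNB1 in each library, in CPM on axes that start at 0 and differ between panels; blue points are control siRNA (ctrl), orange points CDH3-AS1 siRNA (AS1), b1 and b2 the batches, and bars 95% Clopper-Pearson intervals, which cover counting error only. By value the groups of LEF1, TCF7L2, ZNRF3, AXIN2 and CTNNB1 do not overlap, with only 3 to 9 reads per library for AXIN2. AXIN1 and APC differ more by value between batches than between siRNAs.

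At the cell surface, ligand and coreceptor gave little to measure. WNT5A, a ligand best known for signalling that does not run through beta-catenin, lies on chromosome 3 at 55465715 to 55505263. It had 1 and 2 coding-sequence reads in control batches 1 and 2 and 0 and 2 reads with CDH3-AS1 siRNA. LRP6, the coreceptor, lies on chromosome 12 at 12116025 to 12267044. Its relative LRP5 was listed, with 40.7 and 33.4 CPM in the controls and 36.7 and 45.2 CPM after CDH3-AS1 siRNA, and the groups overlapped (edgeR log2 fold change 0.19, SE 0.35, adjusted p = 1.00).

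Of the paired receptor ligases, ZNRF3 was measured and RNF43 was near the floor. ZNRF3, on chromosome 22 at 28883572 to 29057488, had 5.97 and 6.75 CPM in the controls (11 and 38 reads) and 8.66 and 10.7 CPM with CDH3-AS1 siRNA (55 and 28 reads). Both CDH3-AS1 siRNA libraries lay above both controls, with group means of 9.70 ± 1.46 and 6.36 ± 0.553 CPM (SD, n = 2 each). The edgeR log2 fold change was 0.59 (SE 0.48, adjusted p = 1.00), and 0.61 with the block (SE 0.51, adjusted p = 0.812). Without control replicate 1 it was 0.55. RNF43, on chromosome 17 at 58352500 to 58417534, had 1 read in control replicate 1 and 0 reads in the other 3 libraries, which, counted as up to 3 reads, allows up to 0.533 CPM in control replicate 2 and up to 0.473 and 1.15 CPM in CDH3-AS1 siRNA replicates 1 and 2. At this depth no difference of RNF43 was detectable.

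The scaffolds and the kinase of the destruction complex showed no difference beyond the spread between libraries. AXIN1, the scaffold on chromosome 16 at 287440 to 352723, was read at 42.9 and 25.4 CPM in control batches 1 and 2 and at 41.6 and 27.2 CPM with CDH3-AS1 siRNA. Within each batch the siRNAs lay close together, and both batch 2 libraries lay below both batch 1 libraries. The log2 fold change was 0.07 (SE 0.41, edgeR adjusted p = 1.00), with -0.010 in batch 1 and 0.15 in batch 2. With 1 library left out it was 0.51 without control replicate 1 and 0.32 without CDH3-AS1 siRNA replicate 2. It turned to -0.24 without control replicate 2 and to -0.25 without CDH3-AS1 siRNA replicate 1. APC, the large tumour suppressor that holds beta-catenin in the complex, on chromosome 5 at 112707498 to 112846239, had 68.9 and 104 CPM in the controls and 76.7 and 101 CPM after CDH3-AS1 siRNA. Here both batch 2 libraries lay above both batch 1 libraries, and the siRNA groups overlapped. Its log2 fold change was 0.07 (SE 0.36, edgeR adjusted p = 1.00), and it turned to -0.17 without control replicate 1 and to -0.16 without CDH3-AS1 siRNA replicate 2.

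GSK3B, the kinase that phosphorylates beta-catenin, lies on chromosome 3 at 119821321 to 120094447. It had 53.2 and 58.1 CPM with control siRNA and 56.4 and 48.7 CPM with CDH3-AS1 siRNA, the smallest ratio of highest to lowest library among the 6 tested components. The groups overlapped, and the log2 fold change was -0.04 (SE 0.32, edgeR adjusted p = 1.00), 0.12 in batch 1 and -0.20 in batch 2. Without control replicate 1 it was -0.076, and it turned to 0.046 without control replicate 2 and to 0.041 without CDH3-AS1 siRNA replicate 2. AXIN2, a scaffold like AXIN1 and itself a widely used readout of beta-catenin activity, lies on chromosome 17 at 65528563 to 65561648. It had 4.88 CPM in control replicate 1 (9 reads, 95% Clopper-Pearson interval 2.23 to 9.27) and 1.60 CPM in control replicate 2 (9 reads, 0.731 to 3.04). With CDH3-AS1 siRNA it had 1.10 CPM (7 reads, 0.443 to 2.27) and 1.15 CPM (3 reads, 0.237 to 3.36). By value both controls lay above both CDH3-AS1 siRNA libraries. The gap was widest for control replicate 1, the library with muscle and collagen transcripts. The intervals of all 4 libraries overlapped, those of control replicate 1 and CDH3-AS1 siRNA replicate 1 only narrowly. With no filter on low counts, where 52 of 13861 genes (0.375%) were called, AXIN2 had an edgeR log2 fold change of -1.11 (SE 1.06, adjusted p = 1.00).

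The nuclear partners of beta-catenin differed in sign, with LEF1 lower and TCF7L2 higher in value, and neither passed the test. LEF1, on chromosome 4 at 108047548 to 108168932, had 61.9 and 62.0 CPM in the controls (114 and 349 reads) and 55.1 and 39.5 CPM after CDH3-AS1 siRNA (350 and 103 reads). Both CDH3-AS1 siRNA libraries lay below both controls, and the gap was wider in batch 2. The log2 fold change was -0.34 (SE 0.34, edgeR adjusted p = 1.00), and -0.36 with the block (SE 0.30, adjusted p = 0.803), with -0.13 in batch 1 and -0.60 in batch 2. Without control replicate 1 it was -0.32. TCF7L2, on chromosome 10 at 112950247 to 113167678, had 24.4 and 52.4 CPM in the controls (45 and 295 reads) and 58.3 and 67.8 CPM after CDH3-AS1 siRNA (370 and 177 reads). Control replicate 1 stood apart on the low side, and the other 3 libraries lay within a narrower range.

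For TCF7L2 the log2 fold change was 0.73 (SE 0.44, edgeR adjusted p = 1.00), and 0.81 with the block (SE 0.31, adjusted p = 0.212), the closest of the components to the threshold. It was 1.27 in batch 1 and 0.42 in batch 2. Without control replicate 1 the value was 0.33, and without control replicate 2 it was 1.41. Among the family members not chosen by name, TCF7 had 0 and 3 reads in the controls and 4 and 0 reads with CDH3-AS1 siRNA.

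**Figure D2:**
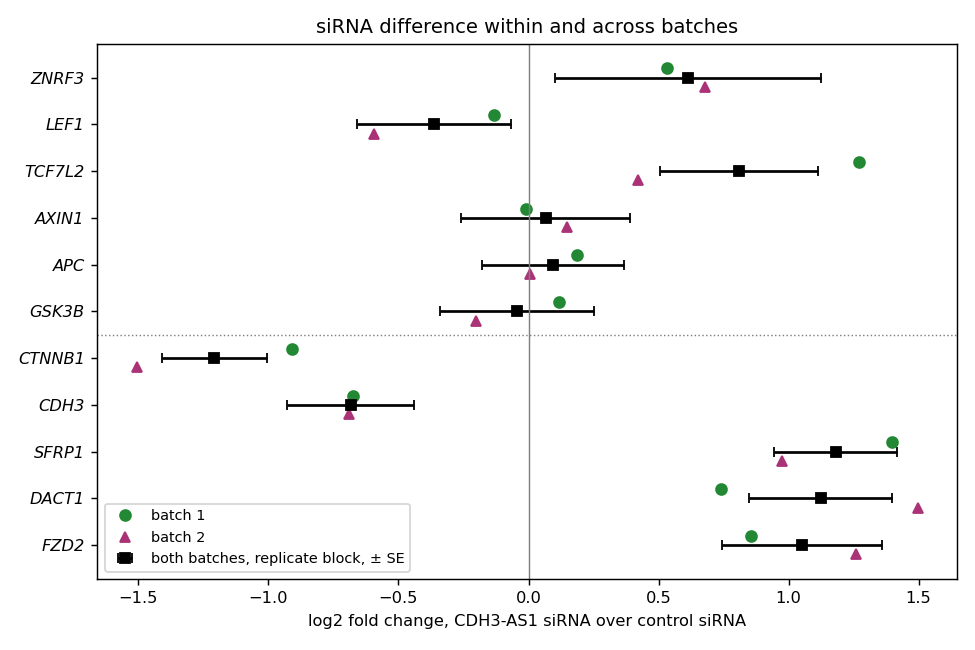
Log2 fold change of CDH3-AS1 siRNA over control siRNA for the 6 tested components (above the dotted line) and for CTNNB1, CDH3 and the other pathway genes called with the replicate block. Circles are batch 1, triangles batch 2, and squares the edgeR fit with the replicate block, with bars of 1 SE; LEF1 and TCF7L2 keep their direction in both batches, and the bars of AXIN1, APC and GSK3B cross 0.

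By value, some components differed more between the batches than between the siRNAs, yet none was called between batches, and the 2 differences were not compared by a test. In the edgeR model with siRNA and batch, 1657 of 10469 genes (15.8%) differed between batches. AXIN1 was lower in batch 2 by a log2 difference of -0.65 (adjusted p = 0.174), and by -0.73 within the controls and -0.57 within the CDH3-AS1 siRNA libraries. APC was higher in batch 2 by 0.52 (adjusted p = 0.196), and by 0.61 and 0.43 within the siRNA groups. TCF7L2 had a batch difference of 0.64 (adjusted p = 0.143), made of 1.10 within the controls and 0.25 within the CDH3-AS1 siRNA libraries. The values were 0.26 for ZNRF3, -0.21 for LEF1 and -0.02 for GSK3B.

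Levels can be set against each other only per length, and for this the authors' RPKM values, which are scaled to length and library size, were added up over each gene's transcripts. CTNNB1 had the highest ribosome density of all these genes, with a mean RPKM of 1287 in the controls and 541 after CDH3-AS1 siRNA. Next came GSK3B with 85.8 and 71.8 RPKM and LEF1 with 61.6 and 48.5 RPKM, whose ranges over the 4 libraries overlapped (60.2 to 87.9 and 35.4 to 64.0). With reads divided by the length of the transcript with most reads, LEF1 stood above GSK3B, 43.5 against 39.6 on the RPKM scale, so their order depends on the transcripts counted. TCF7L2 followed with 19.8 and 32.5 RPKM. AXIN1 at 12.1 and 12.3 RPKM and APC at 9.86 and 13.2 RPKM had overlapping ranges, and both also overlapped the range of TCF7L2.

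The lower end of the order held the brakes and the ligand. ZNRF3 had 2.09 RPKM in the controls and 3.19 RPKM after CDH3-AS1 siRNA, below the range of APC and above that of AXIN2. AXIN2 stood at 1.17 and 0.41 RPKM, WNT5A at 0.36 and 0.545 RPKM, and RNF43 at 0.11 and 0 RPKM, and the ranges of neighbours overlapped.

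**Figure D3:**
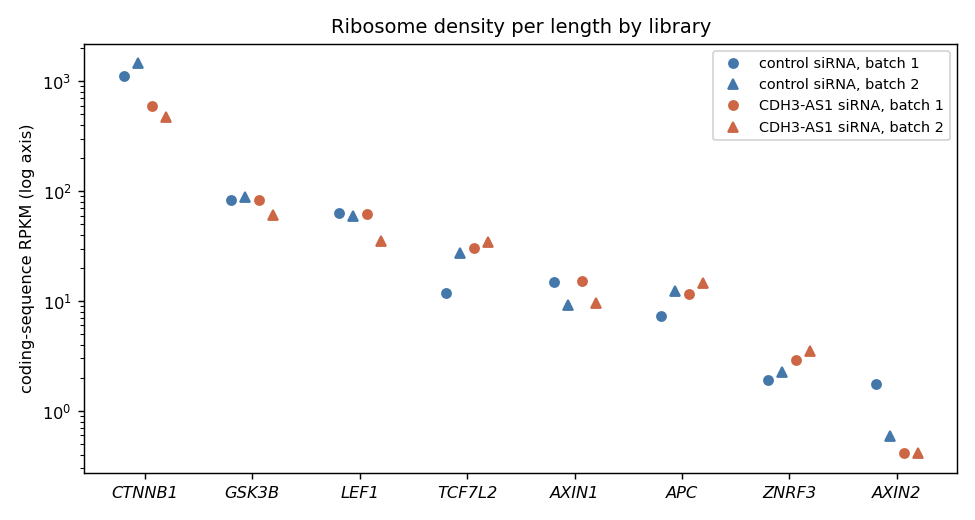
Coding-sequence RPKM of CTNNB1 and 7 components in each library on a log axis, with control siRNA in blue, CDH3-AS1 siRNA in orange, circles for batch 1 and triangles for batch 2. CTNNB1 lies above every component shown in every library, and its gap to each of the 6 tested components, though not to AXIN2, is narrower in the CDH3-AS1 siRNA libraries than in the controls.

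Per length, beta-catenin was thus read far more than the genes that degrade it or act with it. The ratios given here divide a gene's coding reads by the length of its transcript with most reads and do not use the summed RPKM. The choice matters for GSK3B, which averaged 39.6 on this scale and 78.8 by summed RPKM, while CTNNB1 averaged 904 and 914. By summed RPKM the ratio to GSK3B is therefore smaller than the values below. Averaged over the 4 libraries, CTNNB1 had 20.8 times the ribosome density of LEF1, 22.8 times that of GSK3B, 35.8 times that of TCF7L2 and 74.0 times that of AXIN1. Relative to GSK3B the ratio was 29.0 and 33.3 in control batches 1 and 2 and 14.2 and 13.5 with CDH3-AS1 siRNA. Relative to LEF1 it was 22.9 and 28.7 in the controls and 13.4 and 15.3 with CDH3-AS1 siRNA. For APC it was 151 and 125 in the controls and 70.7 and 43.9 with CDH3-AS1 siRNA. In each of these ratios both CDH3-AS1 siRNA libraries lay below both controls, which follows the lower CTNNB1 level.

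By likeness of pattern over the 4 libraries, measured as the Euclidean distance between centred log2 CPM profiles, LEF1 was the component nearest to CTNNB1 with a distance of 0.885. GSK3B followed at 1.18, APC at 1.41, AXIN1 at 1.50, ZNRF3 at 1.86 and TCF7L2 at 2.15. CDH3, which is no pathway component, was nearer than any of them at 0.608. These distances share the same 4 libraries and their depth and describe them only. A gene that does not vary also has a limited distance to CTNNB1, and neither that distance nor a rank among all tested genes was taken. The order therefore does not show that a component follows CTNNB1.

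Footprints also lay in the 5′ UTRs, where ribosomes scan or translate short upstream reading frames, and several components stood high in this readout. The 5′ UTR took 3.81% to 7.09% of all reads in a library, the highest share being that of CDH3-AS1 siRNA replicate 2. Over 6265 genes with at least 50 reads per library, the median share per gene was 2.54% and 2.35% in the controls and 1.67% and 3.39% with CDH3-AS1 siRNA. GSK3B had 25.9% and 33.1% of its reads in the 5′ UTR in the controls and 16.9% and 36.1% with CDH3-AS1 siRNA. Its mean share stood at the 94.9th percentile of these genes, and the siRNA groups overlapped.

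LEF1 had a 5′ UTR share of 12.8% (95% interval 7.63 to 19.7) and 18.2% (14.7 to 22.2) in the controls and of 15.4% (12.2 to 19.2) and 33.3% (26.1 to 41.2) with CDH3-AS1 siRNA. CDH3-AS1 siRNA replicate 2 stood above the other 3 libraries, as did that library's overall share. AXIN1 had 20.4% and 19.8% in the controls and 4.44% and 29.8% with CDH3-AS1 siRNA, so the extremes were both in the CDH3-AS1 siRNA group. TCF7L2 had 31.8% (20.9 to 44.4) in control replicate 1, 21 of 66 reads, and 11.6% in control replicate 2, against 6.47% and 11.8% with CDH3-AS1 siRNA. Control replicate 1 was again the library that stood apart for TCF7L2. The mean shares of LEF1, AXIN1 and TCF7L2 stood at the 90.3rd, 89.2nd and 86.1st percentile.

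By their share of reads, APC and CTNNB1 lay near the middle of all genes. APC had 3.05% and 1.01% in the controls and 2.79% and 1.47% with CDH3-AS1 siRNA, the 43.5th percentile by its mean. CTNNB1 had 2.05% and 2.59% in the controls and 1.18% and 3.76% with CDH3-AS1 siRNA, the 46.2nd percentile. ZNRF3 had 8.33% and 20.8% against 5.08% and 15.2%, from 12 to 59 reads per library and with intervals that overlapped. In the 3′ UTR, where few footprints are found, AXIN1 stood out among the components with 6.48% and 3.74% in the controls and 11.7% and 1.92% with CDH3-AS1 siRNA, the 91.2nd percentile by its mean.

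A long 5′ UTR takes more reads than a short one, so reads per base were also compared, with the reads of all transcripts of a gene over the region lengths of its leading transcript, the one with most coding reads. Reads on other transcripts can lie outside those lengths, so these densities are approximate, and CTNNB1 had its 5′ UTR reads on other transcripts than the leading one. For GSK3B, with a 5′ UTR of 1013 bases, density in the 5′ UTR was 45.8% and 62.5% of that in the coding sequence in the controls and 26.8% and 71.7% with CDH3-AS1 siRNA. For LEF1, with 1189 bases, it was 14.6% and 22.1% in the controls and 18.7% and 50.2% with CDH3-AS1 siRNA. The median of 5126 genes was 30.8% and 27.8% in the controls and 20.1% and 39.9% with CDH3-AS1 siRNA, so LEF1 lay below that median in every library but CDH3-AS1 siRNA replicate 2. AXIN1, with 436 bases, had 165% and 154% in the controls and 31.5% and 259% with CDH3-AS1 siRNA, above the median in all 4 libraries. TCF7L2, with 510 bases, had 170% and 48.2% in the controls and 25.6% and 49.5% with CDH3-AS1 siRNA, and it too lay above the median in every library. So did APC, with 179% and 58.1% in the controls and 164% and 86.2% with CDH3-AS1 siRNA, from 4 to 14 reads per library on all its transcripts. The 5′ UTR of its leading transcript has only 150 bases and held 1 and 3 reads in the controls and 5 and 3 reads with CDH3-AS1 siRNA. Another 10 reads, summed over the libraries, lay on a transcript with a 5′ UTR of 351 bases, so the values for APC are rough. APC was thus near the middle of all genes by share and above their median by this approximate density. CTNNB1, with 15.2% and 19.3% in the controls and 8.61% and 28.3% with CDH3-AS1 siRNA, lay below it in every library.

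**Figure D4:**
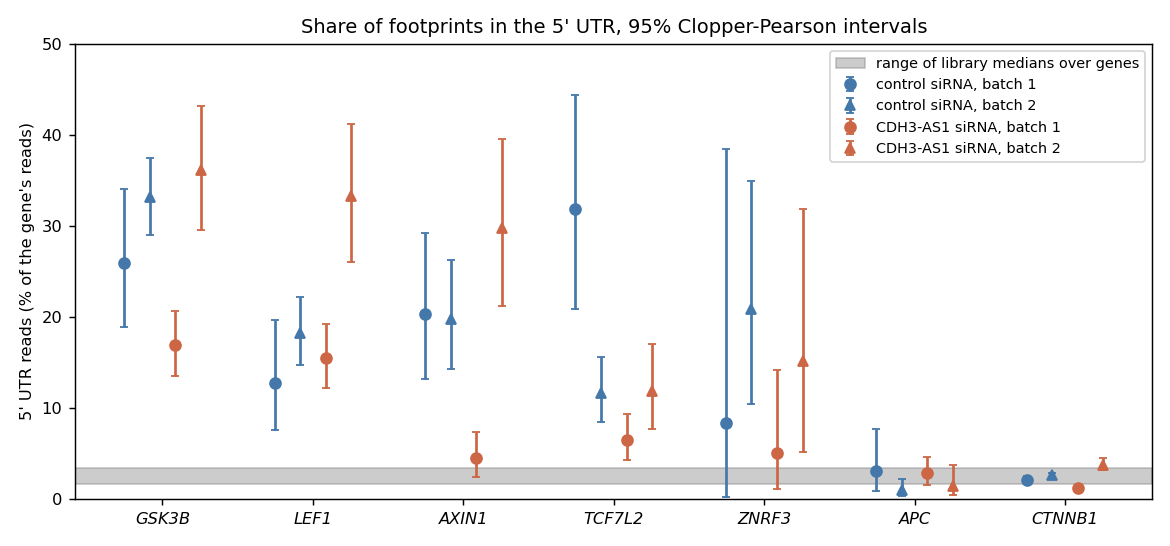
Share of each gene's reads that lie in the 5′ UTR, in percent, for the 6 tested components and CTNNB1 in each library (blue control siRNA, orange CDH3-AS1 siRNA, circles batch 1, triangles batch 2), with 95% Clopper-Pearson intervals. The grey band spans the library medians over genes, 1.67% to 3.39%. By value GSK3B, LEF1, AXIN1, TCF7L2 and ZNRF3 lie above it in every library, though intervals of AXIN1 and ZNRF3 reach it. APC and CTNNB1 lie near it.

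Reads of a gene were listed under up to 11 transcripts for these genes, and the split says how reads were assigned and not which isoform was translated. AXIN1 and ZNRF3 had coding reads on 1 transcript only. The leading transcript held 99.5% of the coding reads of APC, 87.1% of TCF7L2, 82.6% of CTNNB1, 82.1% of LEF1 and 80.4% of GSK3B. For TCF7L2, whose transcripts are spliced in many ways, the transcript with the next most reads had 0 of 45 reads in control replicate 1 and 45 of 295 in control replicate 2. With CDH3-AS1 siRNA it had 47 of 370 and 21 of 177 reads. Its share there was 12.7% and 11.9%, and the interval for 0 of 45 reads reaches 7.9%.

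Read more widely, the pathway lists named 128 genes by role, of which 108 were listed and 72 tested, and these include the 6 components and CTNNB1. Without the block 0 of the 72 were called. With it, 4 (5.56%, beside 1.62% of all tested genes) were called: SFRP1, DACT1 and FZD2 higher and CTNNB1 lower. The lists were chosen with earlier results known, among them the lower CTNNB1 level, so setting 5.56% beside 1.62% is no test of the pathway. In both batches 27 were higher and 15 lower, and 30 went opposite ways. Among all tested genes 26.5% were higher and 27.8% lower in both, which is also the background for the counts by role below. The siRNA groups did not overlap for 19 of the 72, 12 higher and 7 lower, where 27.3% of all tested genes did not overlap. The median log2 fold change was 0.04, with 0.11 in batch 1 and 0.13 in batch 2, beside -0.03 over all tested genes.

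The called genes on the higher side act above the destruction complex. SFRP1, a secreted protein that binds WNT ligands, had 144 and 379 CPM in the controls and 371 and 720 CPM after CDH3-AS1 siRNA. The groups overlapped, with batch 2 higher under both siRNAs, and within each batch the CDH3-AS1 siRNA library was the higher. Its log2 fold change with the block was 1.18 (SE 0.24, edgeR adjusted p = 2.06e-04), 1.40 in batch 1 and 0.97 in batch 2, and DESeq2 with the block gave 1.20 (adjusted p = 0.00298). Without the block it was 1.10 (edgeR adjusted p = 1.00), and leaving out a library moved it between 0.52 (CDH3-AS1 siRNA replicate 2 left out) and 1.98 (control replicate 2 left out). It was 0.59 without control replicate 1, the library with muscle and collagen transcripts.

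DACT1, a protein that binds Dishevelled, had 78.2 and 46.7 CPM in the controls and 128 CPM in each CDH3-AS1 siRNA library. The groups did not overlap, and the log2 fold change with the block was 1.12 (SE 0.28, edgeR adjusted p = 0.00564), beside 1.08 without it (adjusted p = 1.00) and 1.51 without control replicate 1. FZD2, a Frizzled receptor, had 47.8 and 18.1 CPM in the controls and 84.9 and 42.5 CPM after CDH3-AS1 siRNA, and its groups overlapped. Its log2 fold change with the block was 1.05 (SE 0.31, edgeR adjusted p = 0.0407). Without the block it was 1.02 (adjusted p = 1.00), and leaving out a library moved it between 0.45 (CDH3-AS1 siRNA replicate 1 left out) and 1.87 (control replicate 1 left out). Without control replicate 2 it was 0.48. DESeq2 with the block, which called 55 genes (0.525%), called neither DACT1 (adjusted p = 0.0834) nor FZD2 (adjusted p = 0.276).

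The remaining roles held no called gene besides these. Of 19 WNT ligands, 11 were listed and 1 was tested, WNT10B, with 1.63 and 1.95 CPM in the controls and 3.31 and 2.68 CPM after CDH3-AS1 siRNA. WLS, which carries WNTs to the cell surface, had a log2 fold change of 0.23, and PORCN, which attaches their lipid, 0.63. Of 9 tested Frizzled and LRP genes, 4 were higher in both batches and none lower, and the median was 0.14, or 0.27 without control replicate 1. FZD6 and FZD1 had log2 fold changes of -0.28 and 0.01. Among 9 tested genes of alternative receptors and planar polarity, the median was 0.00 (0.14 and -0.14 without CDH3-AS1 siRNA replicates 1 and 2), with PTK7 at 0.09, CELSR2 at 0.01, DAAM1 at 0.12 and VANGL1 at -0.37. LGR4, the R-spondin receptor, had 0.64, and KREMEN1, which binds DKK inhibitors, had 0.37.

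Inside the cell, the 16 tested genes of the destruction complex and its regulators had 4 members higher in both batches and 4 lower, with a median of -0.07. That median had no stable direction, being -0.24 without CDH3-AS1 siRNA replicate 1, 0.24 without control replicate 1 and 0.060 without CDH3-AS1 siRNA replicate 2, and 0.053 within batch 1. CSNK1A1, the kinase that primes beta-catenin for GSK3, had 207 and 203 CPM in the controls and 140 and 143 CPM after CDH3-AS1 siRNA. Its groups did not overlap, and with a log2 fold change of -0.49 (SE 0.30, edgeR adjusted p = 1.00), or -0.49 with the block (adjusted p = 0.522), it was not called. The related kinases CSNK1D and CSNK1E had values of 0.36 and -0.21, and the phosphatase subunit PPP2R1A had -0.25. The Dishevelled proteins, which relay the signal from Frizzled, had 0.18 for DVL1, -0.13 for DVL2 and 0.33 for DVL3. Of 7 tested genes on that list, 2 were higher and 2 lower in both batches. Among 15 tested genes of beta-catenin and its nuclear effectors, 5 were higher and 4 lower in both batches and the median was -0.05. It was 0.33 without control replicate 1, 0.17 and -0.19 without CDH3-AS1 siRNA replicates 2 and 1, 0.059 without control replicate 2, and 0.10 within batch 1. The coactivator BCL9L had 0.32 and the corepressor TLE3 0.30.

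**Figure D5:**
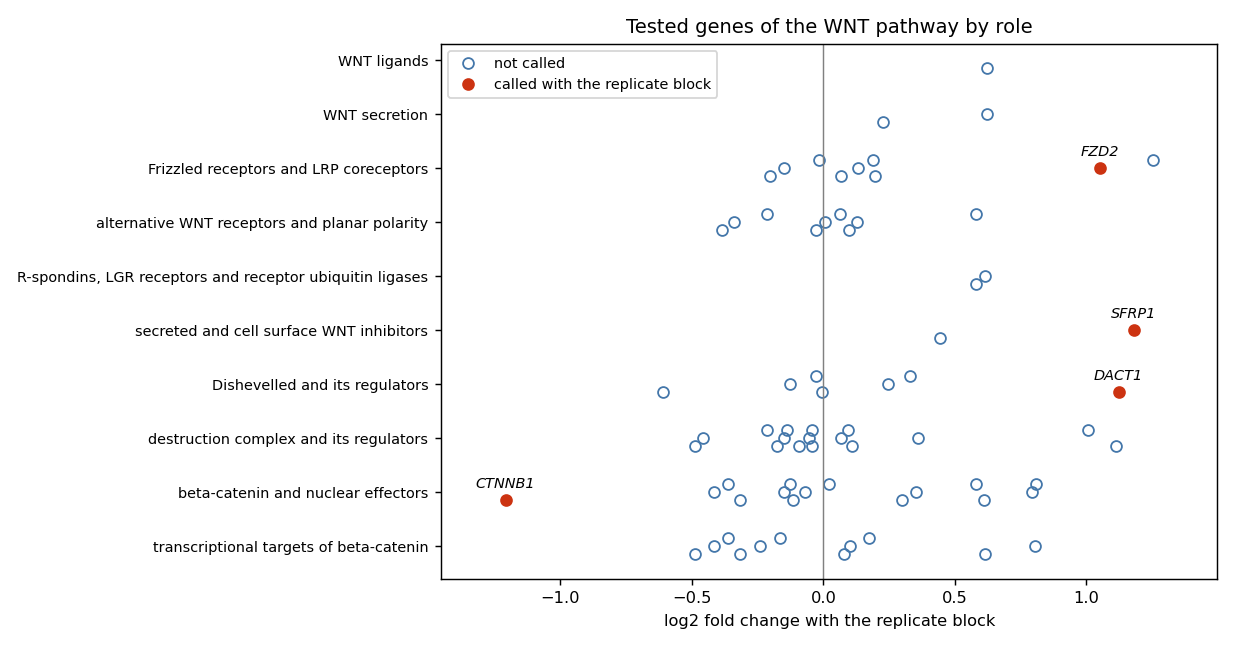
Log2 fold change with the replicate block of each tested pathway gene, 1 point per gene, in rows by role; the small vertical offsets only separate points, and a gene on more than 1 list appears in each of its rows. Filled points are the 4 genes called by edgeR with the block, SFRP1, DACT1 and FZD2 on the higher side and CTNNB1 on the lower side.

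No tested gene on the list of known transcriptional targets of beta-catenin was called, a count near the background of 0% without and 1.62% with the block over all genes. Of 20 named targets, 11 were tested, 4 were higher in both batches and 4 lower in both, and the median log2 fold change was -0.17. That median was -0.028 and 0.015 within batches 1 and 2, 0.14 without control replicate 2, -0.081 without control replicate 1 and -0.041 without CDH3-AS1 siRNA replicate 1, so it had no stable direction either. CCND1, which encodes cyclin D1, had 2408 and 2513 CPM in the controls and 2776 and 2294 CPM after CDH3-AS1 siRNA. MYC had 172 and 255 CPM in the controls and 211 and 249 CPM with CDH3-AS1 siRNA. In both genes the groups overlapped, and the edgeR log2 fold changes were 0.08 and 0.15 (adjusted p = 1.00 each). CD44, a surface receptor for hyaluronan, had 2241 and 2152 CPM in the controls and 1888 and 1354 CPM after CDH3-AS1 siRNA. Its groups did not overlap, and the value of -0.40 (SE 0.34, edgeR adjusted p = 1.00), or -0.42 with the block (adjusted p = 0.464), did not pass.

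MITF had 606 and 1225 CPM in the controls and 580 and 864 CPM after CDH3-AS1 siRNA. Batch 2 was higher with both siRNAs, and within each batch the CDH3-AS1 siRNA library was the lower, with log2 fold changes of -0.03 and -0.45 (-0.30 in edgeR, SE 0.45, adjusted p = 1.00). The TCF and LEF proteins bind DNA at a short core, and MITF is shown here because it alone among the pathway genes with reads held that core in the promoter windows searched. The letters CTTTGAT were searched on both strands in RefSeq promoter windows (GRCh38.p14) from 250 bases before to 50 after each start. They occurred in 919 of 35116 windows of all genes (2.62%). Among the components, 7 had windows, and 0 of their 12 windows held the letters. Over all pathway lists 2 of 141 windows (1.42%) held them, a lower share than among all genes, and the other match belonged to SP5, which had no row in the tables used here. The 3 windows of MITF had 1 match, in the window of the start farthest along the gene on the + strand, at 204 bases before that start. The match and its flanks are given 5′ to 3′ on the + strand at chr3:69936377-69936405, with the searched letters in capitals.
MITF promoter: agtgagtttgaCTTTGATagctcgtcact
A match describes these letters only, and binding was not measured here.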

How the data were processed

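Ribosome footprints of 4 libraries were analysed. Per the file headers, each row of the deposited tables is a transcript with its read count in the 5′ UTR, coding sequence and 3′ UTR, the RPKM of each region by the authors, and, as other columns, region lengths. The submitters' processing notes name hg38 and DESeq2. Aligner, read filters, counting tool, strand setting and annotation release were not given in the sources used here. Matched RNA-seq was not used, so the values describe ribosome density, not translational efficiency.

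The members and the lists were chosen with earlier results of these data known. Coding counts were summed by gene name and filtered with filterByExpr (minimum count 10, minimum total 15), which left 10469 genes. They were tested with edgeR 4.0.16 in R 4.3.3 (TMM, quasi-likelihood test, prior count 2, Benjamini-Hochberg, threshold 0.05), a procedure tested on simulated data. Library totals were 2034854 to 6759850 reads. Libraries of 1 number share a batch in the labels, and their residuals around the group means had a correlation of 0.58 over genes, so the block pairs libraries of a batch. It lowered the biological coefficient of variation from 35.9% to 20.2%. Replicates of a group differed beyond sampling noise (chi-square over degrees of freedom 41.9 and 34.5). Named were all components, CTNNB1, CDH3, pathway genes called in either fit, and up to 4 tested genes per list with the highest mean CPM. TCF7 was named in addition. Standard errors were taken from the fold change and its F statistic. Positions come from a RefSeq gene table of GRCh38.p14, to which 13900 of 14355 names matched. Alternatives were DESeq2 1.42.0, limma 3.58.1 on log2(RPKM + 1) and log2(RPKM + 0.1), other scaling, filters, transcripts and regions, and single libraries left out.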

Additional observations from a re-analysis of the deposited data

Results flagged for a closer look

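For AXIN1 and GSK3B the libraries of the batches moved opposite ways under the siRNA. AXIN1 had a log2 fold change of -0.010 in batch 1 and 0.15 in batch 2. GSK3B had 0.12 in batch 1 and -0.20 in batch 2. Each batch holds 1 library per siRNA, and the difference between the batches was not tested.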

How the results depend on the processing

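The count of genes called was 0 in the edgeR test without a block, 170 with the replicate block, 52 with no filter on low counts, 2 with DESeq2 and 55 with DESeq2 and the replicate block. Leaving out 1 library gave 0 to 11 calls, the 11 without control replicate 2. The block called CTNNB1, SFRP1, DACT1 and FZD2 and changed no other call among the components and pathway genes. The median of all pathway lists, 0.04, was 0.066 with all regions counted and 0.068 with DESeq2. It was 0.019 and 0.013 with limma at pseudocounts of 1 and 0.1, and 0.11 and 0.13 within batches 1 and 2. It ranged from 0.032 to 0.25 with 1 library left out, the 0.25 without control replicate 1. LEF1, TCF7L2, ZNRF3, CTNNB1 and CDH3 kept their direction under every alternative that could be fitted for them. AXIN1 reversed within batch 1 (-0.010) and ranged from -0.25 to 0.51 with 1 library left out, and APC ranged from -0.17 to 0.42. With limma on log2(RPKM + 1) and log2(RPKM + 0.1), APC moved to 0.42 and 0.46, GSK3B to -0.27 and -0.28, and the median of the target list from -0.17 to 0.026 and 0.043. GSK3B reversed with the leading transcript alone (0.041) and within batch 1 (0.12), and ranged from -0.13 to 0.046 with 1 library left out. The difference of batch 2 minus batch 1 reversed within the controls for LEF1 (0.022) and GSK3B (0.14) and within the CDH3-AS1 siRNA libraries for CTNNB1 (-0.25) and DACT1 (0.042). The cause of these changes was not tested. TCF7L2 and ZNRF3 had under 50 reads in a library and gave no value under the stricter filter. A library left out leaves a group with 1 library, which is assumed to vary like the other group. Depth limits AXIN2, WNT5A and RNF43 to a few reads per library.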
